A study of Mus musculus with 8 samples.

Results

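The genes described here store, import, export or sequester iron in the macrophage: the ferritin heavy and light chains Fth1 and Ftl1, the transferrin receptor Tfrc, the iron exporter ferroportin (Slc40a1), the divalent metal transporters Slc11a1 and Slc11a2, and the siderophore-binding lipocalin Lcn2. They were taken by symbol, and all 7 were found among the 21080 gene symbols of the series. Macrophages take up iron with transferrin and with engulfed red cells, keep it in ferritin, and release it through ferroportin. When cellular iron is low, the iron regulatory proteins (encoded by Aco1 and Ireb2) bind hairpins called iron-responsive elements, which blocks translation when the hairpin lies in the 5'UTR and protects the mRNA from decay when it lies in the 3'UTR. Inflammatory macrophages are known to lower ferroportin and to secrete Lcn2, which keeps iron from bacteria.

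The RNA came from BMDMs (bone marrow-derived macrophages, grown in culture) of Nudt21-cKO mice (Nudt21 fl/fl with LysM Cre, which deletes floxed alleles in myeloid cells) and of WT mice, which were littermates that carried LysM Cre as well. Nudt21 encodes the subunit of the cleavage and polyadenylation machinery that binds UGUA in the pre-mRNA and takes part in the choice of the polyadenylation site. Each genotype was measured at 0 h and after IFNγ overnight followed by LPS for 4 h. The 0 h cells were taken as unstimulated from their titles, although the treatment label of those samples also names the stimulation. Each of the 4 groups had 2 samples, WT samples 1 and 2 and cKO samples 3 and 4, and a sample held the BMDMs of 2 mice in a pool, so p-values measure the spread between pools. The mice were sex-matched and on the C57BL/6 background. LysM Cre is known to leave some macrophages undeleted, and the coverage of a gene does not single out its deleted exons. Nudt21 itself had a coverage of 718 and 641 in WT against 158 and 172 in cKO at 0 h, and of 547 and 575 in WT against 142 and 115 in cKO at 4 h.

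Values are the mean read coverage per base of a gene, so genes of different length can be compared, and samples were not scaled to each other. Summed coverage was between 14950347 and 17954882 per sample, and the number of reads behind each gene is unknown. Differences are log2 fold changes of coverage + 0.1 with their standard error (SE) from limma, and a gene was called higher or lower when its fold change exceeded 1.5 with an unadjusted p under 0.05. For a single value, exact permutation of 2 against 2 samples (two-sided) stops at p = 0.333. All 8 macrophage markers checked (Adgre1, Csf1r, Cd68, Itgam, Fcgr1, Lyz2, Mertk and Cd14) had a mean coverage of at least 10 in every group. Their summed coverage was 120530 to 129084 in WT against 123746 to 132928 in cKO at 0 h, and 64070 to 65060 in WT against 70588 to 75278 in cKO at 4 h. Within this sum the markers moved in opposite directions. At 0 h Adgre1 (20130 and 24458 in WT against 13820 and 14295 in cKO), Csf1r (38697 and 44260 against 26255 and 30290), Itgam and Fcgr1 were lower in both cKO samples, while Cd68 (45504 and 42908 against 69414 and 73397) and Lyz2 were higher. At 4 h Adgre1 and Fcgr1 lay lower and Cd68, Lyz2 and Mertk higher in both cKO samples, and the part of these shifts in the iron gene values was not tested. In bulk RNA, fewer cells of a type and less RNA per cell cannot be told apart.

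Of the 7 genes, 4 carry a hairpin with the letters and the pairing of an iron-responsive element in their transcripts (GENCODE release M21 on GRCm38). The search asked for a C, then 5 bases, the loop CAGUGN and 5 bases that pair with the first 5, on the mRNA strand. The hairpins are shown because they are where the iron regulatory proteins are known to bind these mRNAs, at the 5' end in 3 of them and in the 3'UTR of Tfrc. They are printed 5′ to 3′ with the 6-base loop in capitals.

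Fth1, 5'UTR, chr19:9982731-9982760, plus strand: uuuccugcuucaaCAGUGCuugaacggaac
Ftl1, 5'UTR, chr7:45459779-45459808, minus strand: ugucuugcuucaaCAGUGUuugaacggaac
Slc40a1, 5'UTR, chr1:45925465-45925494, minus strand: ccaacuucagcuaCAGUGUuagcuaaguuu
Tfrc, 3'UTR, chr16:32631218-32631247, plus strand: uaauuaucggaagCAGUGCcuuccauaauu
Tfrc, 3'UTR, chr16:32631597-32631626, plus strand: acauuaucgggagCAGUGUcuuccauaaug
Tfrc, 3'UTR, chr16:32631662-32631691, plus strand: ucuauaucggagaCAGUGAucuccauaugu
Tfrc, 3'UTR, chr16:32631709-32631738, plus strand: uaauuaucgggaaCAGUGUuucccauaauu

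The C that opens the hairpin is base 93, 84 and 96 of the 5'UTRs of Fth1, Ftl1 and Slc40a1, which are 224, 253 and 319 bases long. In Tfrc these lie between bases 889 and 1380 of a 3'UTR of 2458 bases. By the same search over 21745 genes, 0.0874% had such a hairpin in the 5'UTR and 0.501% in the 3'UTR of their representative transcript. These letters were not found in Slc11a2, Slc11a1 or Lcn2. An isoform of Slc11a2 is known to carry an element in its 3'UTR whose stem has an extra bulge, a form that this search did not cover. The UGUA motif, again read on the mRNA strand, occurs 1 time in the 3'UTR of Fth1, 2 times in that of Ftl1, 17 times in that of Tfrc, 15 times in that of Slc40a1 and 12 times in that of Slc11a2, and not in those of Slc11a1 and Lcn2. Of 19508 genes with a 3'UTR of at least 50 bases, 84.8% hold at least 1 such motif, and the median is 4.

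To see how the loss of Nudt21 bears on these genes in stimulated macrophages, cKO and WT were compared at 4 h. Fth1, Ftl1, Tfrc, Slc40a1 and Slc11a1 rose in cKO, from 1.71-fold for Slc11a1 to 6.44-fold for Tfrc, and Slc11a2 and Lcn2 were not called. That makes 5 of 7 genes higher and 0 lower, against 20.8% higher and 4.17% lower among the 14950 genes tested. Of these 5, only Ftl1 and Slc40a1 had an adjusted p under 0.05 over all genes. The median log2 fold change was 1.20 over the 7 genes and 0.31 over all genes tested, and 6 of the 7 were above the latter. After each sample was centred on its own median gene, 3 of the 7 were called, and these were Ftl1, Tfrc and Slc40a1. These genes, and the list of other iron genes below, were chosen with earlier results of these data known. Counts set against all genes are therefore descriptive and no independent test.

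At 0 h the picture was narrower. Tfrc alone was called, 1 of 7 genes higher and 0 lower, with 8.99% of the 16251 genes tested higher and 5.61% lower. Over the 7 genes the log2 fold change had a median of 0.15, and over all genes of 0.10. The plot of coverage by sample shows each of the 7 genes in the 4 groups.

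**Figure D1:**
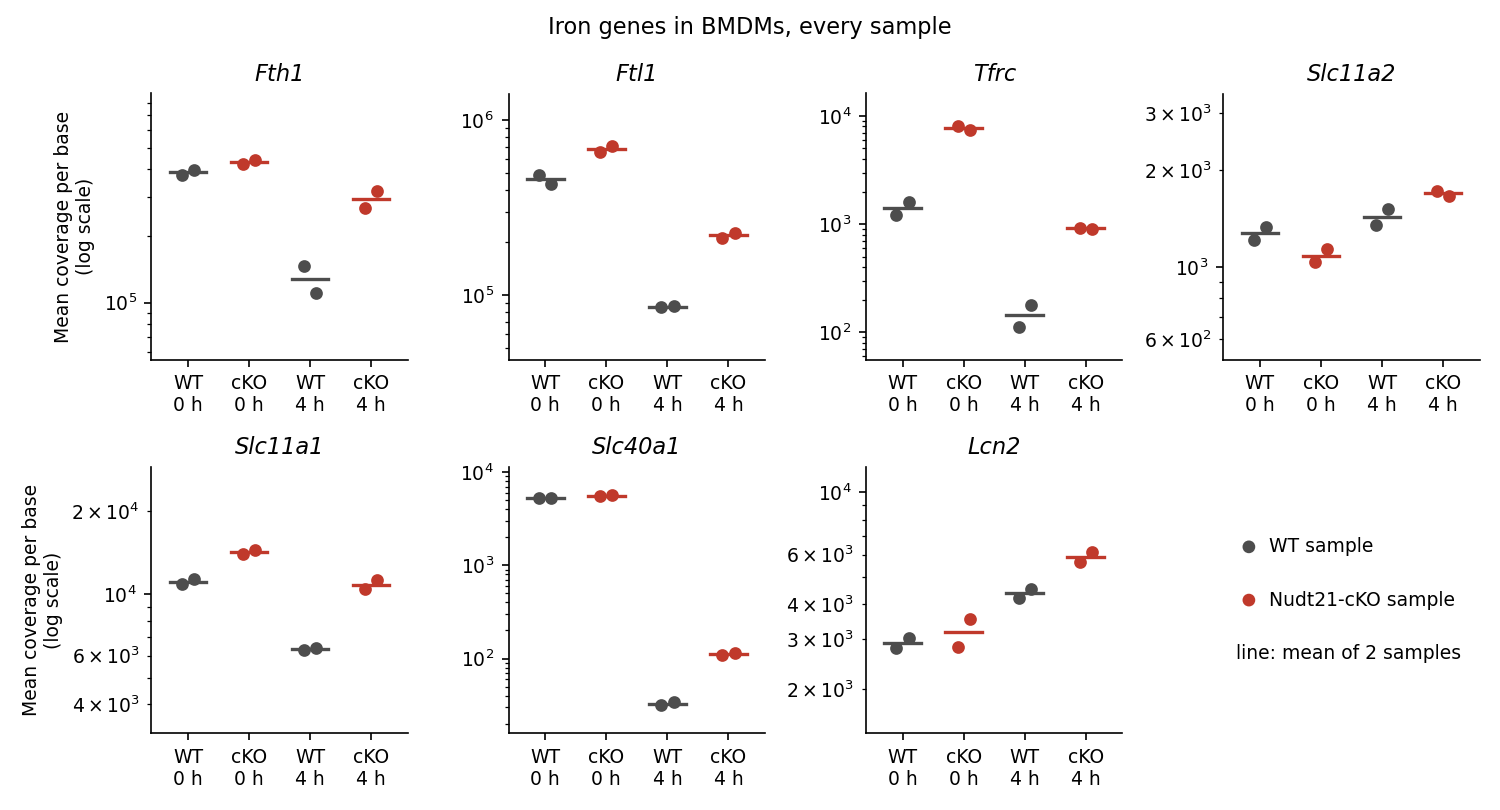
Mean coverage per base (log axis) of the 7 iron genes in every sample of WT (grey) and Nudt21-cKO (red) BMDMs at 0 h and 4 h. Points are samples and lines are means of 2 samples; Tfrc is higher in cKO at both times, whereas Slc40a1 separates by genotype mainly at 4 h, where WT samples are at 31.6 and 33.8 and cKO samples at 108 and 116.

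The ferritin chains were the most abundant of these mRNAs. Fth1 encodes the heavy chain, which oxidises ferrous iron as it enters the ferritin shell, and lies on chromosome 19 (9980598 to 9985098, plus strand). Its coverage at 4 h was 145859 and 110591 in WT against 267541 and 320044 in cKO. The groups did not overlap, and the cKO mean was 2.29 times the WT mean (log2 fold change 1.20, SE 0.21, limma adjusted p = 0.0747). Without cKO sample 4 the log2 fold change of 1.07 was not called, nor was that of 0.87 after median-centring. At 0 h Fth1 had 378635 and 397183 in WT against 423560 and 439687 in cKO, which gave a log2 fold change of 0.15 with a 95% confidence interval of -0.17 to 0.48.

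Ftl1 encodes the light chain, which helps to form the iron core, and lies on chromosome 7 (45457944 to 45459884, minus strand). At 4 h its coverage was 85518 and 86222 in WT against 211496 and 226701 in cKO. The cKO mean was 2.55 times the WT mean, with a gap between the groups far wider than the spread within either (log2 fold change 1.35, SE 0.10, limma adjusted p = 0.0453), and the call was kept in all 10 alternative settings. Unstimulated cells had 483596 and 431087 in WT against 656694 and 708715 in cKO, again without overlap. The log2 fold change at 0 h of 0.58 (SE 0.13) fell just under the 1.5-fold limit and was not called, but without WT sample 1 it was 0.66 and was called. The transcript shares at least 300 bases at 95% identity or more with 7 other annotated genes, 2 of which are in the tables, so reads could be split among copies and the value of Ftl1 is uncertain to that extent.

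As a share of the summed coverage of a sample, the pair made up 5.47% and 5.23% in WT against 6.49% and 6.47% in cKO at 0 h. After stimulation the share was 1.49% and 1.32% in WT against 2.76% and 3.05% in cKO. Ftl1 and Fth1 ranked 1 and 2 of all genes in every 0 h sample. At 4 h Fth1 ranked 13 and 15 in the WT samples and 1 in both cKO samples, while Ftl1 ranked 22 and 19 in WT against 4 and 6 in cKO. In stimulated cKO cells Fth1 was therefore the gene with the highest coverage of all.

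The ratio of Fth1 to Ftl1, which does not depend on depth, was 0.783 and 0.921 in WT against 0.645 and 0.620 in cKO at 0 h, and 1.71 and 1.28 in WT against 1.27 and 1.41 in cKO at 4 h. Stimulation moved the ratio in every sample from below 1 to above 1, by 0.80 on the log2 scale in WT and 1.08 in cKO. The cKO and WT samples did not overlap at 0 h (difference -0.43 on the log2 scale, exact two-sided permutation p = 0.333, the smallest possible) and overlapped at 4 h (difference -0.15, exact permutation p = 0.667). The heavy chain thus made up the larger part of the listed ferritin coverage at 4 h in both genotypes. Since reads of Ftl1 could be split among its copies, the position of the ratio above or below 1 is uncertain to that extent.

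**Figure D2:**
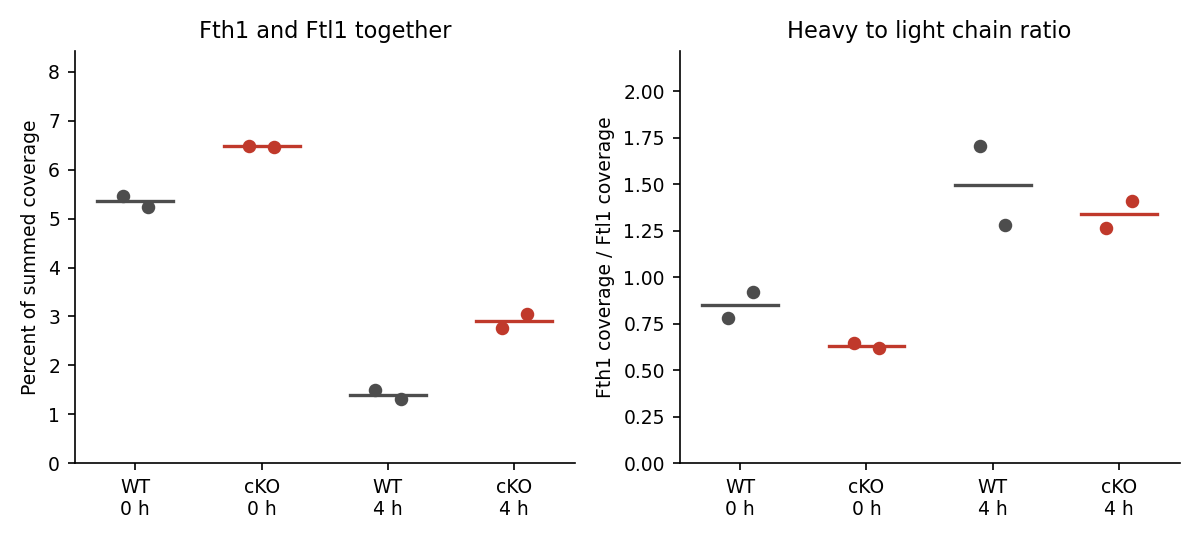
Left, percent of summed coverage held by Fth1 and Ftl1 together; right, coverage of Fth1 divided by that of Ftl1, for each sample of WT (grey) and cKO (red) at 0 h and 4 h, with lines at the mean of 2 samples. The share falls with stimulation to 1.32% to 1.49% in WT and to 2.76% to 3.05% in cKO, and the ratio is above 1 in the 4 stimulated samples only.

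Tfrc, the receptor that takes up transferrin-bound iron, lies on chromosome 16 (32608920 to 32632794, plus strand) and showed the largest genotype difference of the 7 genes at both times. At 0 h its coverage was 1208 and 1615 in WT against 8054 and 7356 in cKO. The cKO mean was 5.46 times the WT mean (log2 fold change 2.46, SE 0.20, limma adjusted p = 0.0668). Stimulated samples had 112 and 179 in WT against 930 and 895 in cKO, a ratio of 6.27 (log2 fold change 2.69, SE 0.29, limma adjusted p = 0.0529). The groups were separate at both times and the call was kept in all 10 alternatives at each time, with log2 fold changes from 2.25 to 2.67 at 0 h and from 2.35 to 3.02 at 4 h. Between the times the cKO effect on Tfrc differed by 0.22 (95% confidence interval -0.74 to 1.19, limma adjusted p = 0.775), an interval that leaves room for a change in either direction.

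Because red cell precursors have abundant Tfrc, erythroid markers are given beside it. Of 10 listed, 8 were in the tables, and their summed coverage was 31.8 to 48.3 in WT against 18.6 to 34.2 in cKO at 0 h, and 2.52 to 8.15 in WT against 8.03 to 9.35 in cKO at 4 h. The beta-globin genes Hbb-bs and Hbb-bt were listed at 0 in all 4 cKO samples. In WT, Hbb-bs had 2.27 in sample 1 at 0 h and 2.60 in sample 2 at 4 h. Hbb-bt had 1.70 in WT sample 1 at 0 h, and the other WT values of both genes were 0. The alpha-globin genes Hba-a1 and Hba-a2 were present in every sample and higher in both cKO samples at 4 h (Hba-a1 at 1.26 and 1.81 in WT against 4.89 and 2.42 in cKO). At 0 h these overlapped between the genotypes, while Epor had 29.4 and 15.2 in WT against 9.13 and 5.92 in cKO. The part of these markers in the Tfrc values was not tested.

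Slc40a1, the only known exporter of iron from cells, lies on chromosome 1 (45908068 to 45926523, minus strand). Unstimulated cells had a coverage of 5237 and 5289 in WT against 5531 and 5671 in cKO, a log2 fold change of 0.09 (95% confidence interval -0.22 to 0.40) that was -0.033 to -0.0025 under the 3 scaling alternatives. After stimulation only 31.6 and 33.8 remained in WT and 108 and 116 in cKO. The residual coverage in cKO was 3.43 times that in WT (log2 fold change 1.78, SE 0.11, limma adjusted p = 0.0375), and the call was kept in all 10 alternatives with log2 fold changes of 1.44 to 1.82. Slc40a1 RNA was thus nearly lost in both genotypes, to 0.621% of the 0 h mean in WT and 2.003% in cKO, and the genotypes differed in what was left. Ferroportin protein was not measured.

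Slc11a1 (chromosome 1, 74375195 to 74386062, plus strand) encodes Nramp1, which pumps divalent metals out of the phagosome, and C57BL/6 mice are known to carry a variant that impairs the protein. Its coverage at 4 h was 6289 and 6381 in WT against 10440 and 11265 in cKO, a log2 fold change of 0.78 (SE 0.11, limma adjusted p = 0.0610). Its call depended on the scaling, since the log2 fold changes of 0.44 after median-centring and 0.56 after scaling to equal summed coverage were not called. At 0 h the values were 10932 and 11342 in WT against 14035 and 14472 in cKO, with a log2 fold change of 0.36 (SE 0.10) that was below the fold limit. The samples of the genotypes did not overlap at either time.

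Slc11a2 (chromosome 15, 100387898 to 100425072, minus strand) encodes DMT1, which moves ferrous iron across the plasma and endosomal membranes. On unscaled coverage it was the steadiest of the 7 genes, with group means that spanned 0.64 on the log2 scale. After median-centring, its log2 fold change with stimulation in WT was 1.63. At 4 h the coverage was 1346 and 1508 in WT against 1723 and 1663 in cKO (log2 fold change 0.25, SE 0.12), and at 0 h it was 1214 and 1331 in WT against 1034 and 1136 in cKO (log2 fold change -0.23, SE 0.12). The cKO samples lay above the WT samples at 4 h and below them at 0 h. Neither difference was called, and that at 4 h was -0.09 after median-centring and -0.01 after quantile normalization.

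Lcn2 (chromosome 2, 32384633 to 32388252, minus strand) had 4224 and 4516 in WT against 5672 and 6144 in cKO at 4 h, without overlap. The log2 fold change of 0.43 (SE 0.11, limma adjusted p = 0.111) was under the fold limit and not called. The 0 h samples overlapped, with 2790 and 3039 in WT against 2820 and 3556 in cKO (log2 fold change 0.12, SE 0.17, or -0.05 without cKO sample 4 and -0.00140 at equal summed coverage). Lcn2 is also a granule protein of neutrophils. Of 13 neutrophil markers all were in the tables, and their summed coverage was 24902 to 27504 in WT against 29244 to 38584 in cKO at 0 h and 18172 to 22451 in WT against 22917 to 26018 in cKO at 4 h. Without S100a8 and S100a9, which monocytes also express, and Ltf, itself an iron-binding protein, a choice made after the values were seen, the sum was 5391 to 6595 in WT against 7010 to 8885 in cKO at 0 h and 2926 to 4129 in WT against 5152 to 5400 in cKO at 4 h. The defining marker Ly6g was below 8 in every sample and listed at 0 in 3 of them, whereas the granule gene Ngp ranged from 2217 to 5797. The sums were thus higher in both cKO samples at each time, but single markers differed. Retnlg was lower in both cKO samples at each time, Mpo and Elane were lower in both at 4 h, and S100a9 overlapped between the genotypes at 4 h. Their part in the Lcn2 values was not tested.

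**Figure D3:**
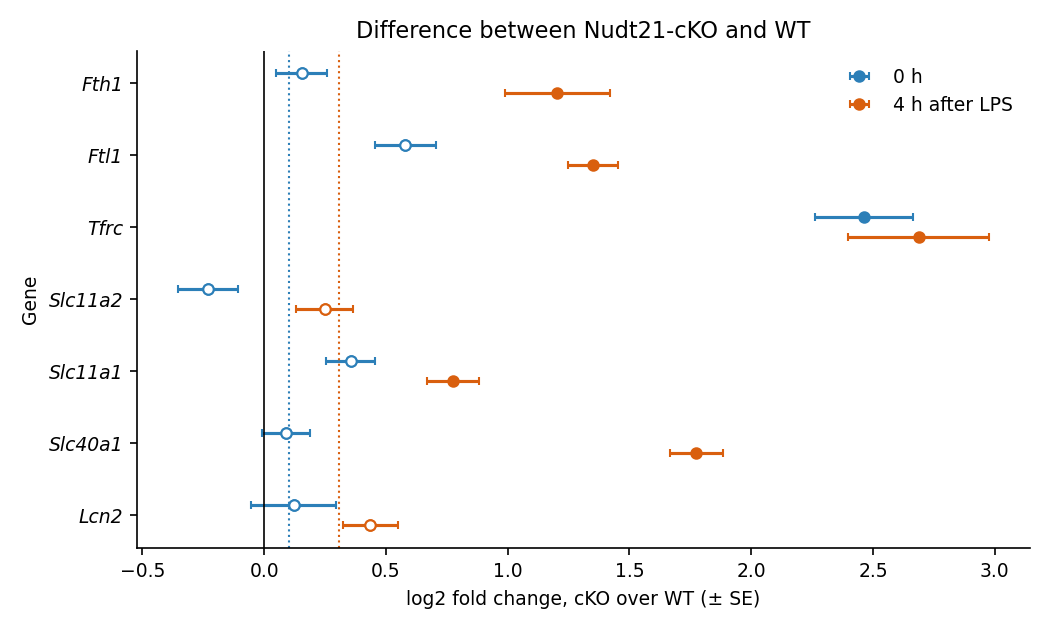
Log2 fold change of cKO over WT with its standard error for the 7 genes at 0 h (blue) and 4 h (orange). Filled points were called and open points were not, and dotted lines mark the median of all genes tested (0.10 and 0.31). Only Tfrc is called at both times, at 2.46 and 2.69.

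To follow the response to IFNγ/LPS, 4 h was compared with 0 h within each genotype. In WT, 5 of the 7 iron genes were called lower and 0 higher, against 56.0% lower and 12.0% higher of the 16284 genes tested. In cKO, 2 were called higher and 3 lower, against 13.5% and 51.9%. Most genes had less coverage after stimulation, with a median log2 fold change of -1.24 in WT and -1.03 in cKO, so each gene was also read against that median. Median-centring turned the split of calls over all genes from 17.7% to 61.0% higher in WT and from 20.6% to 59.3% in cKO.

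Slc40a1 and Tfrc fell the most. The log2 fold change of Slc40a1 was -7.33 in WT (SE 0.09, limma adjusted p = 5.75e-06), or -6.09 relative to the median gene, and -5.64 in cKO (SE 0.09, limma adjusted p = 6.83e-06). The log2 fold change of Tfrc was -3.30 in WT and -3.08 in cKO (SE 0.27 for each), which left 10.3% and 11.8% of the 0 h means. These changes were called in all 11 alternatives in each genotype.

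The ferritin chains went down less. Ftl1 fell by 2.41 in WT and by 1.64 in cKO (SE 0.11 for each), 1.17 and 0.61 below the respective medians, and after median-centring the change in cKO was -0.44 and was not called. Fth1 fell by 1.61 in WT (SE 0.17), to 33.1% of its 0 h mean. In cKO the log2 fold change of Fth1 was -0.56, under the fold limit, and it retained 68.1% of its 0 h mean. It was called lower at equal summed coverage (-0.60) and without cKO 4 h sample 4 (-0.69). Against the median of all genes Fth1 stood 0.37 below it in WT and 0.47 above it in cKO, and its direction in cKO turned with scaling, to 0.64 after median-centring, where it was called higher, and 0.27 after quantile normalization, where it was not called, while in WT the change of -0.14 after median-centring was not called.

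The divalent metal transporters and Lcn2 behaved differently from the median gene. Slc11a1 fell by 0.81 in WT (SE 0.09), and its log2 fold change of -0.39 in cKO was not called. Both values lay above the median gene, and median-centring reversed them to 0.65 and 0.81, both called higher, whereas quantile normalization gave -0.74 in cKO, which was called lower. Slc11a2 rose in cKO by 0.64 (SE 0.11, limma adjusted p = 0.00493), a call that was lost at 0.58 without cKO 0 h sample 3, and had a log2 fold change of 0.17 in WT that was not called, although it was called higher at 1.63 after median-centring. Lcn2 rose in cKO by 0.90 (SE 0.15, limma adjusted p = 0.00357). In WT the log2 fold change of Lcn2 was 0.58, which lay at the fold limit and was not called, although it was called at 2.05 after median-centring, at 0.65 without WT 0 h sample 2, at 0.63 without WT 4 h sample 1 and at 0.64 at equal summed coverage.

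**Figure D4:**
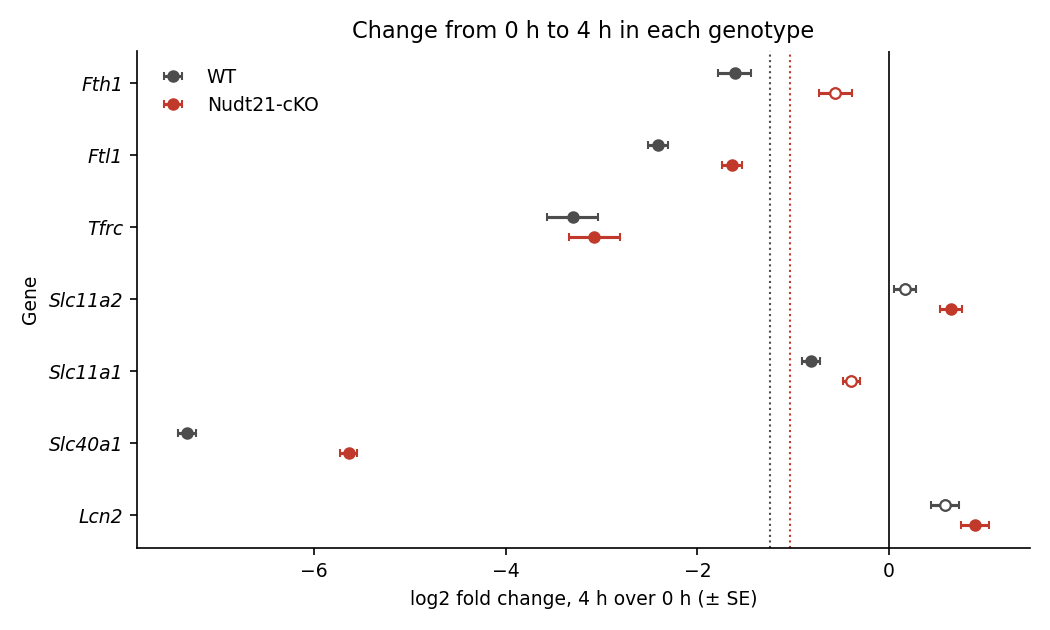
Log2 fold change from 0 h to 4 h with its standard error in WT (grey) and cKO (red). Filled points were called, open points were not, and dotted lines mark the median of all genes (-1.24 in WT and -1.03 in cKO). Slc40a1 lies farthest to the left, at -7.33 and -5.64, while Slc11a2 and Lcn2 lie to the right of 0.

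Whether the genotype difference itself changed with stimulation was tested as an interaction in the fit of the 4 groups, where a gene was called at an adjusted p under 0.05. Slc40a1 was the 1 gene of the 7 that was called, against 3.05% of the 16284 genes tested. Its genotype difference was larger at 4 h by 1.69 on the log2 scale (SE 0.13, 95% confidence interval 1.35 to 2.02, limma adjusted p = 0.00801), 1.49 above the median gene, and the call was kept in 13 of 14 alternatives and lost with the replicate number as a block (limma adjusted p = 0.119). For the ferritin chains the differences of 1.05 for Fth1 (95% confidence interval 0.43 to 1.67, limma adjusted p = 0.0939) and 0.77 for Ftl1 (0.38 to 1.16, adjusted p = 0.0721) did not pass, though Ftl1 did without the filter on low coverage. Quantile normalization cannot test these 2 genes, since they hold the top 2 ranks in every 0 h sample and their 0 h difference is then fixed at 0. Slc11a2 (0.48, adjusted p = 0.180), Slc11a1 (0.42, adjusted p = 0.155) and Lcn2 (0.31, adjusted p = 0.441) did not pass in limma either. In all 7 genes the estimate was positive and above the median of 0.20 over all genes, and that of Tfrc turned to -0.04 after median-centring, -0.58 after quantile normalization and -0.11 without WT 4 h sample 1.

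The order of the 4 groups was the same for 5 of the genes. Fth1, Ftl1, Tfrc, Slc40a1 and Slc11a1 were highest in cKO at 0 h, then in WT at 0 h, then in cKO at 4 h, and lowest in WT at 4 h. Of the neighbours in these orders, only the WT 0 h and cKO 4 h samples of Slc11a1 overlapped. The share of all genes with this order was not computed. Over all genes tested, the log2 fold change of cKO over WT was positive in 59.8% at 0 h and 70.7% at 4 h. That of stimulation was positive in only 22.8% in WT and 24.1% in cKO, so these directions were common. The ratio of the highest to the lowest group mean was 171 for Slc40a1, 53.0 for Tfrc, 7.95 for Ftl1, 3.37 for Fth1 and 2.25 for Slc11a1. Lcn2 had the order cKO 4 h, WT 4 h, cKO 0 h and WT 0 h with a ratio of 2.03, and its 2 lowest groups overlapped. Slc11a2 followed the order cKO 4 h, WT 4 h, WT 0 h and cKO 0 h with a ratio of 1.56.

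Other genes of iron metabolism were taken from a list of 68, of which 66 were in the tables. At 4 h, 59 of them were tested and 17 were higher and 3 lower in cKO, against 20.8% higher and 4.17% lower among all genes, with a median log2 fold change of 0.40 beside 0.31 for all genes. The higher and lower counts were 8 and 5 after median-centring, and the count of higher genes was 9 without cKO sample 4. At 0 h, 64 were tested and 1 was higher and 7 were lower, against 8.99% and 5.61% of all genes, with a median of 0.03 beside 0.10. Without cKO 0 h sample 3 the counts at 0 h were 3 and 2, and of the 8 genes called only Heph and Slc39a8 were called in every fit that left out 1 sample.

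**Figure D5:**
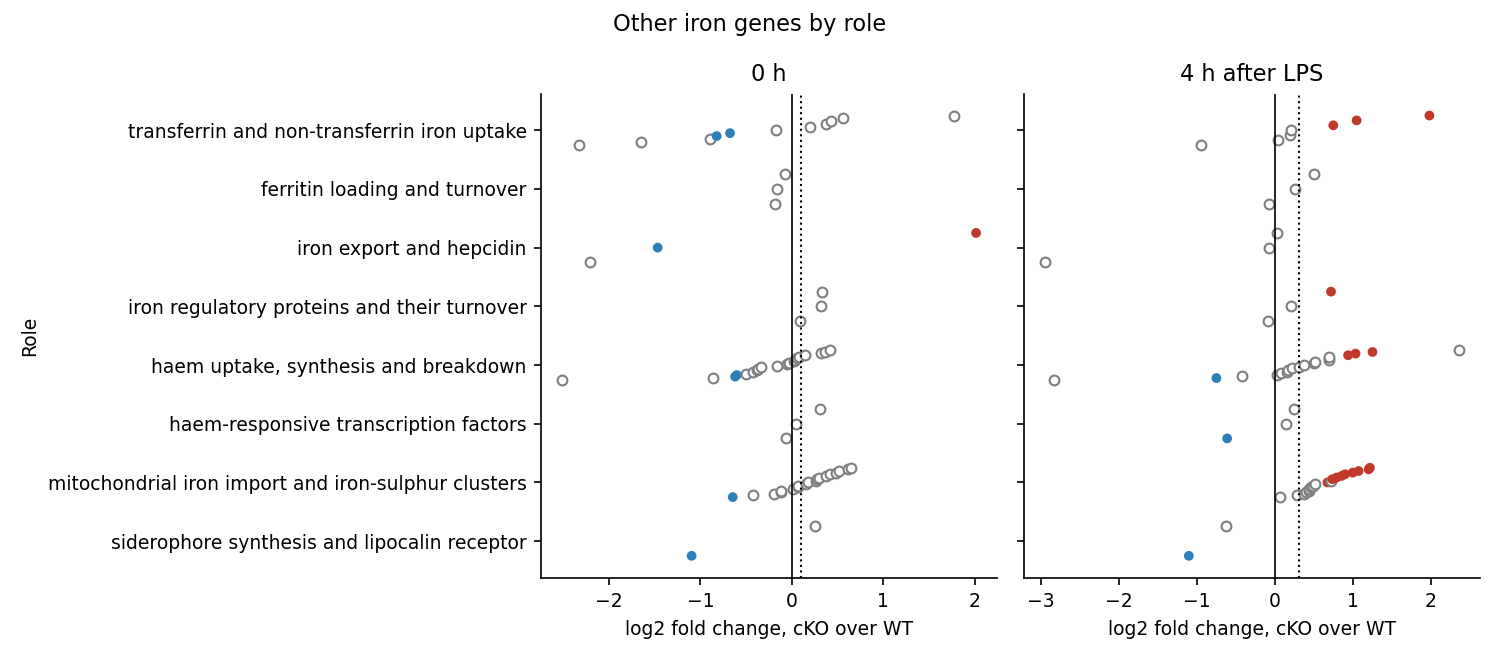
Log2 fold change of cKO over WT for other iron genes, grouped by role, at 0 h (left) and 4 h (right). Red points were called higher, blue points were called lower and open points were not called; dotted lines mark the median of all genes. Open points far from 0 have low coverage, and 9 of the 19 mitochondrial genes are red at 4 h.

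Mitochondrial iron import and iron-sulphur cluster genes were the group with the most calls at 4 h, where 9 of 19 rose and 0 fell, against 20.8% and 4.17% of all genes, with a median log2 fold change of 0.67. Slc25a37 (mitoferrin-1, an importer of iron into mitochondria) had a coverage of 1214 and 1096 in WT against 2296 and 2568 in cKO (log2 fold change 1.07, SE 0.13, limma adjusted p = 0.0563). Isca1, an iron-sulphur assembly protein, had 113 and 132 in WT against 266 and 297 in cKO (log2 fold change 1.20, SE 0.15). Slc25a28, Iscu, Hscb, Nfu1, Glrx5 and Cisd2 were among the other members called, with log2 fold changes of 0.67 to 0.999. At 0 h the same list had 0 genes higher and 1 lower, Bola3, at -0.65, which was not called without WT sample 1 (-0.48), cKO sample 3 (-0.57) or cKO sample 4 (-0.72).

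In the haem group, 4 of 19 rose at 4 h and 1 fell, a share of rises near the 20.8% of all genes. Hmox1, the haem oxygenase that frees iron from haem, had 868 and 846 in WT against 1673 and 1842 in cKO at 4 h (log2 fold change 1.04, SE 0.11, limma adjusted p = 0.0529). At 0 h it had 11031 and 9502 in WT against 7240 and 9078 in cKO. The haptoglobin gene Hp, whose product binds free haemoglobin, had 145 and 170 in WT against 325 and 430 in cKO at 4 h (log2 fold change 1.25, SE 0.21), a call lost at 1.14 without WT sample 1. Flvcr1, a haem exporter, rose by 0.69 at 4 h and was not called under any of the 3 scaling alternatives or without cKO sample 3 (0.65), and Slc48a1, a lysosomal haem transporter, rose by 0.94. Abcg2, which exports porphyrins, fell at both times, by 0.75 at 4 h and by 0.62 at 0 h. Its call was lost without WT sample 1, WT sample 2 or cKO sample 4, with log2 fold changes of -0.78, -0.72 and -0.61 at 4 h and of -0.66, -0.58 and -0.48 at 0 h. Alas1, the first enzyme of haem synthesis in non-erythroid cells, fell by 0.60 at 0 h, a call that was lost without WT sample 2 (-0.49), cKO sample 3 (-0.62) or cKO sample 4 (-0.59).

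Among the uptake genes, 3 of 7 tested rose at 4 h, against 20.8% of all genes. Steap3, the endosomal ferrireductase that works with Tfrc, had 35.0 and 55.5 in WT against 94.2 and 88.6 in cKO (log2 fold change 1.05, SE 0.29), and was not called without the filter, at equal summed coverage, or without cKO sample 3 (1.004) or cKO sample 4 (1.09). Steap4, a related reductase at low coverage, had 3.81 and 4.03 in WT against 13.8 and 18.1 in cKO (log2 fold change 1.98, SE 0.19), and was not called in the fit on all 8 samples. Mcoln1, a lysosomal channel that releases iron, rose by 0.75. At 0 h 2 of 11 fell, against 5.61% of all genes, Slc39a8 by 0.82 and Hfe, which competes with transferrin for Tfrc, by 0.68. The Slc39a8 call was lost in the fit on all 8 samples, and that of Hfe without WT sample 1 (-0.65), WT sample 2 (-0.71) or cKO sample 3 (-0.56).

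The iron regulatory proteins showed a mixed picture. Aco1, which becomes an iron regulatory protein when it lacks its cluster, rose at 4 h (188 and 232 in WT, 346 and 344 in cKO, log2 fold change 0.72, SE 0.15) but was not called under any of the 3 scaling alternatives or without WT sample 1 (0.57), cKO sample 3 (0.72) or cKO sample 4 (0.72). Ireb2, the other binding protein, had 479 and 561 in WT against 518 and 460 in cKO at 4 h. Fbxl5, which targets Ireb2 for degradation, had 659 and 703 in WT against 770 and 800 in cKO at 4 h. Neither was called at 4 h or at 0 h. Ncoa4, the receptor that brings ferritin to the lysosome, had 614 and 668 in WT against 893 and 925 in cKO at 4 h, and 4954 and 5715 in WT against 4855 and 4487 in cKO at 0 h, and was not called at either time.

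The partners of ferroportin and of Lcn2 moved less uniformly. Ceruloplasmin (Cp), a ferroxidase that assists export, fell by 1.47 at 0 h, from 32.8 and 45.8 in WT to 12.9 and 15.04 in cKO, a call lost at -1.36 without cKO sample 3. Hephaestin (Heph), the related membrane ferroxidase, rose by 2.01 at 0 h, from 2.73 and 2.27 to 10.3 and 10.4, and at 4 h was listed at 0 in both WT samples and at 0 and 0.371 in cKO. Slc22a17, a receptor for Lcn2, fell by 1.10 at 4 h, from 2.38 and 2.99 in WT to 1.25 and 1.13 in cKO, a call lost at -1.04 without cKO sample 4. Bdh2, named for the synthesis of a mammalian siderophore, fell by 1.10 at 0 h, with 46.3 and 33.0 in WT against 19.6 and 16.96 in cKO, and was not called without cKO sample 3 (-1.20) or cKO sample 4 (-0.995).

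With stimulation, 43 of 64 genes of the list fell and 5 rose in WT, and 39 fell and 8 rose in cKO, with medians of -1.76 and -1.40. Over all genes 56.0% fell and 12.0% rose in WT and 51.9% fell and 13.5% rose in cKO, with medians of -1.24 and -1.03. The hepcidin gene Hamp, whose product degrades ferroportin, was listed at 2.04 and 0 in WT and at 0 in both cKO samples at 0 h, and had 96.9 and 111 in WT against 119 and 94.96 in cKO at 4 h. The stimulated samples of the genotypes overlapped. Cd163, the haptoglobin-haemoglobin receptor, had 49.8 and 61.6 in WT against 39.8 and 38.4 in cKO at 0 h and was below 0.5 in every sample at 4 h. The log2 fold changes of Hmox1, Steap3 and Flvcr1 in WT were -3.58, -3.60 and -3.54, and in cKO they were -2.21, -2.98 and -3.26. The ferric reductases Cybrd1 and Steap2 were below 5 in every sample and listed at 0 in both WT samples at 4 h. In the interaction test 2 of 64 genes of the list were called, near the 3.05% of all genes. These were Hmox1, whose call was kept in 3 of 14 alternatives, and the haem synthesis gene Cpox, which was singled out after its values were seen.

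The genes whose profile over the 8 samples was nearest to each iron gene were found by the root mean square (RMS) difference of log2 coverage after each gene was centred on its own mean. Nudt4 was nearest to Fth1 with an RMS difference of 0.05, followed by Nfya at 0.12 and Slc35e4 at 0.13. For Ftl1 these were Sirpb1a at 0.08, Herc3 at 0.08 and Kdsr at 0.11, and for Slc11a1 they were Srp9, Cntrl and Zfp335, each at 0.06. Daam1 and Vps37c at 0.07 and Hmga1b at 0.08 were nearest to Lcn2. The 2 genes with the widest range had no close match, since Cdo1 was nearest to Tfrc at 0.23 and Lyl1 to Slc40a1 at 0.27. None of the 7 iron genes was among the 3 nearest of another, and Slc11a2 was left out because its group means spanned less than 1 log2 unit.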

How the data were processed

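RNA-seq of 8 BMDM samples was used. According to the submitters' processing notes, the authors aligned reads to GRCm38 with HISAT2 2.2.1 and quantified genes with StringTie 2.1.7. The deposited values are a coverage signal per gene and sample, in 1 table for each time. The headers name no unit, which was read from the values, and no scaling between samples was found. The tables also hold the authors' fold changes and p-values of cKO against WT, which were not used, and 0 columns of per-sample values were left out.

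Samples were grouped by title. limma 3.58.1 in R 4.3.3 fitted log2(coverage + 0.1) for every gene whose mean was at least 0.5 in the samples of the fit, with Benjamini-Hochberg adjustment over all genes tested. A pseudocount understates changes of genes with low coverage. Genotypes were compared within each time on 4 samples, and stimulation and the interaction were fitted on all 8. The count tests planned for raw counts were not run, because coverage is not counts. The fit was tested on simulated data. Members and gene lists were chosen with earlier results of these data known. Of the iron list, the text names genes called at both times, the 8 largest calls at each time and in WT stimulation, and Ncoa4, Ireb2, Aco1, Fbxl5 and Hmox1 whatever their values. Further called members of a group (Slc25a28, Iscu, Hscb, Nfu1, Glrx5, Cisd2, Mcoln1 and Slc48a1), Cpox, Blvrb and Spic were named after their values were seen.

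Transcripts, positions and hairpins came from GENCODE release M21, using for each gene the longest complete coding transcript with a RefSeq match. Copies were sought with blastn 2.17.0 at 300 bases and 95% identity. The paper gives the reads per sample only as a lower bound, and the number of reads behind each gene is unknown. No counting interval was therefore given, and the number of samples limits the precision. Results were recomputed with another pseudocount, no filter, other scalings, other samples in the fit, the replicate block, and each sample left out. Scaling to equal summed coverage was added after the data were seen. Some genes on these lists are counted but not reported here by name.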

Additional observations from a re-analysis of the deposited data

Results flagged for a closer look

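The genotype difference of Slc40a1 was larger at 4 h than at 0 h by 1.69 on the log2 scale (limma adjusted p = 0.00801 for the interaction), with cKO above WT in every sample at 4 h, and the call was lost with the replicate block. Hmox1 differed between the times by 1.37 (limma adjusted p = 0.0487), a call that was lost after median-centring, after quantile normalization, with the replicate block and without each sample in turn. Cpox, also called in this test, differed by 0.895 (limma adjusted p = 0.0445), and its call was lost at least with the replicate block and without WT 0 h sample 1 or any 1 of the 4 cKO samples.

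In 6 further iron genes whose interaction did not pass in limma, every cKO sample lay below every WT sample at 0 h and above every WT sample at 4 h. The genes of this paragraph were picked because the genotypes separated in opposite directions at the 2 times. The share of all genes that do so was not computed, so the count is no result about iron genes. From 0 h to 4 h the cKO effect shifted by 1.63 for Hp (adjusted p = 0.0572), 1.16 for Glrx5 (adjusted p = 0.0527), 0.927 for Blvrb (adjusted p = 0.0550), 1.08 for Bola3 (adjusted p = 0.0736), 0.69 for Ncoa4 (adjusted p = 0.0989) and 0.48 for Slc11a2 (adjusted p = 0.180). For Blvrb, Ncoa4 and Slc11a2 the genotype difference was called at neither time. Spic, a haem-responsive transcription factor, was higher in both cKO samples at 0 h and lower in both at 4 h, a shift of -0.914 (limma adjusted p = 0.104).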

How the results depend on the processing

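Counts of calls changed with the scaling of samples and with the filter. At 4 h, cKO against WT, 3 members, 8 iron list genes higher and 5 lower, and 1552 and 1480 of all genes were called after median-centring, 9 and 5 and 1530 and 1476 after quantile normalization, and 9 higher list genes and 1929 and 1015 of all genes at equal summed coverage. In WT stimulation, median-centring gave 3 members higher and 3 lower, 18 and 20 list genes and 5653 and 3621 of all genes, quantile normalization gave 11 higher list genes and 3650 and 4922 of all genes, and equal summed coverage gave 1 member higher. In cKO stimulation these were 4 members higher, 22 and 17 list genes and 5322 and 3650 of all genes after median-centring, and 13 higher list genes and 3548 and 4984 of all genes after quantile normalization. In the interaction, calls were 2 members, 5 list genes and 746 higher and 247 lower of all genes without the filter, 1 list gene and 174 higher after median-centring, 3 members, 1 list gene and 210 higher after quantile normalization, 1 list gene at equal summed coverage, and 4 list genes higher and 1 lower with a pseudocount of 1. The 3 members called after quantile normalization include Fth1 and Ftl1, which that method cannot test because it fixes their 0 h difference. At 0 h the fit on all 8 samples called 3 list genes higher.

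Reversed values were, after median-centring, -0.0882 for Slc11a2 at 4 h, -0.0025 for Slc40a1 at 0 h, 0.65 and 0.81 for Slc11a1 in WT and cKO stimulation, 0.64 for Fth1 in cKO stimulation and -0.0406 for Tfrc in the interaction. After quantile normalization they were -0.0103 for Slc11a2 at 4 h, -0.0287 for Slc40a1 at 0 h, 0.27 for Fth1 in cKO stimulation and -0.58 for Tfrc in the interaction. Fth1 and Ftl1 at 0 h became 0.0 under that method, since they hold the same ranks in all 4 samples. At equal summed coverage Slc40a1 was -0.0328 and Lcn2 -0.00140 at 0 h. The causes of these reversals were not tested.

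Leaving out 1 sample at a time, 4 to 5 members, 9 to 21 list genes higher and 0 to 4 lower, and 1765 to 4000 of all genes higher were called at 4 h. The same fits gave 1 to 2 members higher at 0 h with 1 to 3 list genes higher and 2 to 6 lower, 0 to 1 members higher in WT stimulation and 1 to 2 in cKO stimulation. In the interaction they gave 0 to 1 list genes in each direction and 117 to 546 higher and 67 to 146 lower of all genes. Lcn2 at 0 h ranged from -0.0460 to 0.288, and Tfrc in the interaction from -0.113 to 0.562. Over the 7 genes and 5 comparisons, 160 of these refits gave the same direction and call, and 196 of the others did.

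Samples with the same number at both times did not deviate together (correlation of deviations 0.0204 in WT and 0.0237 in cKO over 16284 genes), so the numbers were not used as pairs. With the replicate block the interaction called 15 genes higher and 16 lower, 0 members and 0 list genes, and Slc40a1 kept its value of 1.69 with an adjusted p of 0.119 in a range of 0.00215 to 0.119 over its alternatives. With 2 samples per group the spread is itself poorly known, and the depth in reads behind low values such as Heph, Hamp or Slc22a17 is unknown. The DESeq2 alternative was not run, because the values are not counts.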
